A study of Mus musculus with 12 samples.

Results

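The circadian clock genes examined here are Per1, Per2, Per3, Cry1, Cry2, Nr1d1, Nr1d2, Dbp, Arntl and Clock, the core feedback loop and one of its direct outputs. Their RNA was measured in mouse cerebellum on 12 whole-transcript arrays. A gene entered if an array row carried its symbol alone, which held for 9 of the 10 genes, among 22180 genes with such a row in all. The row for Per2 also carries a second gene symbol, so Per2 was not analysed here. Each of the 9 genes had 1 row, so the choice of the brightest row per gene did not come into play.

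The arrays compare mice without Ciz1, a gene for a nuclear zinc-finger protein of DNA replication, with controls, with 1 array per animal. WT_male and WT_female are the control males and females, and KO_male and KO_female are the Ciz1-/- males and females, with 3 arrays in each. The controls are called wild type in the source names and Ciz1+/+ in the extraction protocol, but their genotype field reads Ciz1+/-. In the extraction protocol all mice are 10 months old, whereas the design text of the series allows 6 to 10 months. No treatment is listed. The sources used here do not give the hour of the day at which tissue was taken, the lighting schedule, the strain or the way the Ciz1 allele was made. Replicate numbers only name an array.

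In the mammalian clock, the transcription factors CLOCK and BMAL1, the product of Arntl, bind E-box sequences as a pair and switch on the Per and Cry genes. PER and CRY proteins then enter the nucleus and hold back CLOCK and BMAL1, which closes a loop that takes about a day. In a second loop the nuclear receptors REV-ERB alpha and beta, the products of Nr1d1 and Nr1d2, repress Arntl through sites that they share with the activating ROR receptors. Dbp encodes a transcription factor that is driven by E-boxes and acts through D-box sequences on further rhythmic genes, Per genes among them. Outside the brain's master clock in the suprachiasmatic nucleus, tissues such as the cerebellum carry clocks of their own.

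Ciz1 itself fell by 1.64 on the log2 scale in the knockout (SE 0.07; limma adjusted p = 1.42e-06), and its arrays did not overlap between the genotypes. By mean brightness among all genes, the Purkinje cell markers Calb1, Car8 and Ppp1r17 lay at percentiles 99.8, 99.7 and 99.4. The granule cell markers Gabra6, Cbln1, Zic1 and Neurod1 lay at percentiles 99.6, 99.6, 99.5 and 80.2. The suprachiasmatic markers Vip, Six6 and Avp lay at percentiles 23.2, 31.8 and 50.4. The mean level of 6 choroid plexus markers ranged from 7.29 to 9.07 in wild type and from 6.90 to 8.66 in the knockout, all on the log2 scale. The mean of 4 oligodendrocyte markers ranged from 8.90 to 9.11 in wild type and from 8.51 to 8.96 in the knockout. The first principal component of all genes held 16% of the variance. It separated the KO_female arrays, which scored 10.72 to 16.01, from the remaining arrays, which scored -12.18 to 3.54. Among the latter, the WT_male arrays scored -12.18 to -7.48 and the WT_female arrays -1.24 to 3.54. In these bulk samples fewer cells of a type and less RNA per cell cannot be told apart.

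None of the 9 clock genes passed the test for genotype over both sexes (limma, Benjamini-Hochberg adjusted p under 0.05 over all genes), and 0.0225% of all genes did. At an unadjusted p under 0.05 Clock was the 1 gene of the 9, where 9.26% of all genes reached that level. The 9 differences, knockout minus wild type, ran from -0.10 for Per1 to 0.078 for Nr1d1 on the log2 scale, with 5 lower and 4 higher. Their median was -0.0015, against -0.0007 over all genes. The median size of the difference, without its sign, was 0.059 among the clock genes and 0.054 over all genes. The 95% intervals of the 9 differences all lay between -0.21 and 0.18, that is between a level 1.16-fold lower and one 1.14-fold higher. For no clock gene did the 6 knockout arrays and the 6 wild-type arrays lie apart without overlap, as 0.55% of all genes did. The protocol names 12 mice for the 12 arrays, so each p reflects the spread between animals and arrays together.

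**Figure D1:**
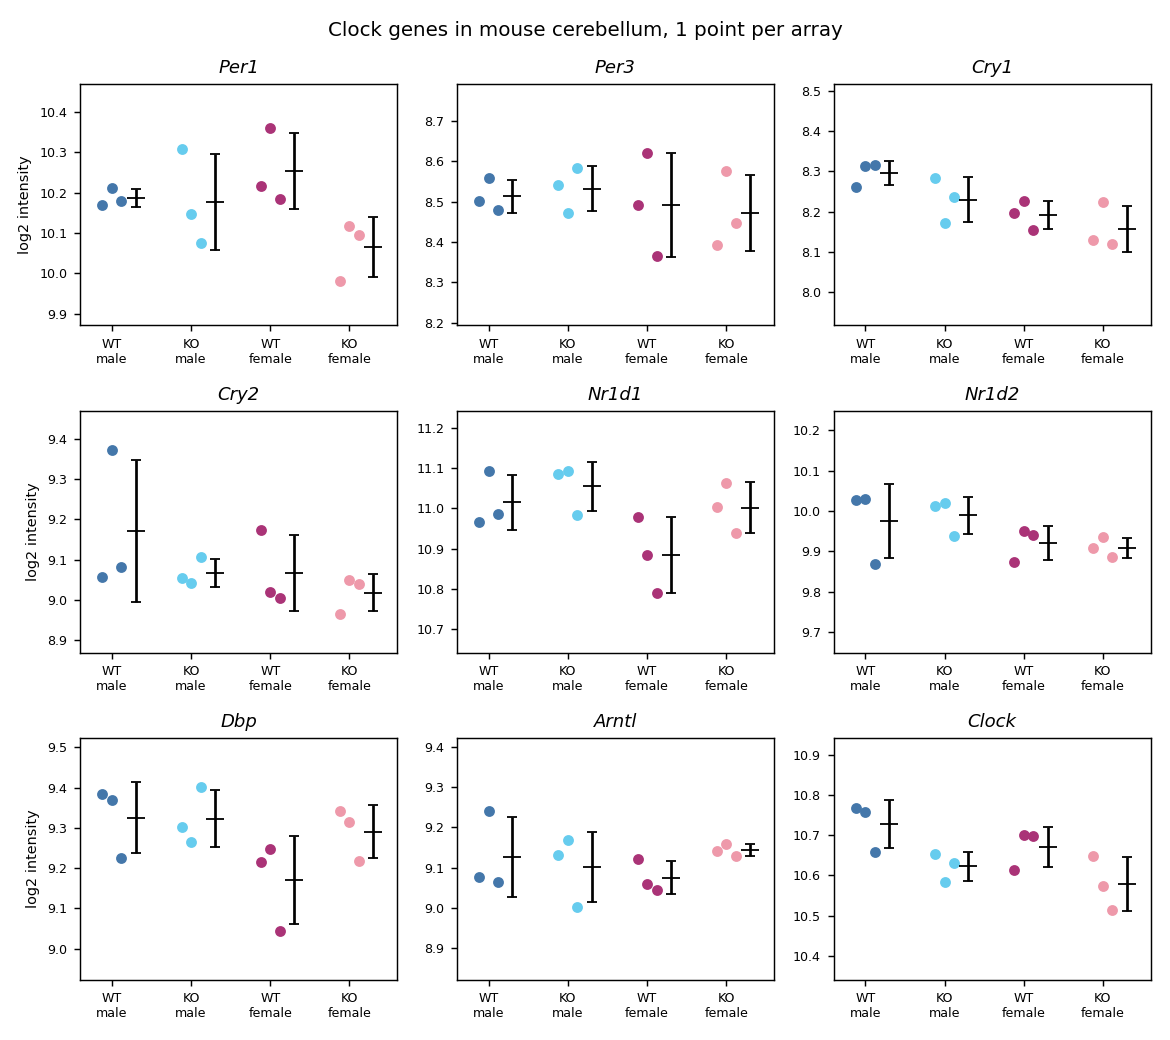
Log2 intensity of the 9 clock genes (y axis, 0.6 log2 units in every panel) in the 4 groups (x axis), with 1 point per array and the group mean ± SD (n = 3) in black. The points of knockout and wild type overlap within both sexes for most genes; Clock in males and Per1 and Arntl in females are the exceptions.

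Clock and Arntl encode the activating pair. Clock read 10.77, 10.76 and 10.66 in WT_male, 10.61, 10.70 and 10.70 in WT_female, 10.65, 10.58 and 10.63 in KO_male and 10.65, 10.57 and 10.52 in KO_female on the log2 scale. The wild-type arrays were mostly higher, and every KO_male array lay below every WT_male array, while in females the genotypes overlapped at WT_female replicate 1 and KO_female replicate 1. Its difference over both sexes was -0.098 (SE 0.042; 95% interval -0.19 to -0.006; limma unadjusted p = 0.039, adjusted p = 0.522), with -0.11 in males and -0.091 in females. The interval of Clock did not reach 0, but Clock ranked 1656 among the 22180 genes by p, and the difference did not pass. Its unadjusted limma p was 0.05 or more, with an interval that included 0, under 9 of 20 alternatives: the choroid plexus covariate (0.0683) and leaving out any of 8 single arrays (up to 0.0932 without KO_female replicate 3). Beside it stands the oligodendrocyte marker level, whose range was lower in the knockout with some overlap. Within groups that level and Clock had a Pearson r of -0.05 over the 12 arrays; the part of these cells in the difference was not tested.

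Arntl read 9.08, 9.24 and 9.06 in WT_male, 9.12, 9.06 and 9.04 in WT_female, 9.13, 9.17 and 9.003 in KO_male and 9.14, 9.16 and 9.13 in KO_female. The 3 KO_female arrays were close together and above the WT_female arrays, and the male groups overlapped. Its difference was 0.021 over both sexes (SE 0.047; 95% interval -0.08 to 0.12; limma adjusted p = 0.929) and 0.068 in females (SE 0.066; limma adjusted p = 0.814). The lack of overlap in females therefore came with a difference of about the size of its standard error in the fit.

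Of the Per genes, which encode the repressors that set the pace of the loop, Per1 and Per3 were measured. Per1 is also switched on directly by neuronal activity and by glucocorticoids. The 250 bases before each gene's start in the RefSeq table of assembly GRCm38.p6 were searched on both strands for the E-box CACGTG, the related letters CACGTT (called E-prime here), the D-box TTATGNAA, the ROR element as TAGGTCA or TGGGTCA, and the cyclic AMP element TGACGTCA. The first 2 share 5 letters but cannot match the same 6 bases. All 9 clock genes had an entry, with 13 starts in all. The stretches that hold a match follow for the Per genes, with the matched letters in capitals, because these are the letters through which the loop and Dbp are known to act on them. The stretch of Per1 (chr11:69098768-69098947, plus strand, first of 2 starts) and that of Per3 (chr4:151044801-151044885, minus strand) are written 5′ to 3′.
Per1: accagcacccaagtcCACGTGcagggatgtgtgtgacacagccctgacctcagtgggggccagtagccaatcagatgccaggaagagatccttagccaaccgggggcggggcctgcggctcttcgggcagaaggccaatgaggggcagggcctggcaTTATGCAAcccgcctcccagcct
Per3: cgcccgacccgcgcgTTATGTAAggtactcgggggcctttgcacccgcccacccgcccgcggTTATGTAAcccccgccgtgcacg
Per1 held an E-box that begins 166 bases before the start and a D-box that begins 24 bases before it. Per3 held 2 D-boxes with the same letters, at 205 and 158 bases. Among 32851 windows of this length an E-box was present in 6.02% and a D-box in 3.07%. A match describes the letters and does not show binding.

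Per1 read 10.17, 10.21 and 10.18 in WT_male, 10.22, 10.36 and 10.19 in WT_female, 10.31, 10.15 and 10.07 in KO_male and 9.98, 10.12 and 10.10 in KO_female. All KO_female arrays lay below all WT_female arrays, and the male groups overlapped. Over both sexes the difference was -0.10 (SE 0.053; 95% interval -0.21 to 0.015; limma adjusted p = 0.591). In females it was -0.19 (SE 0.074; 95% interval -0.35 to -0.03; limma unadjusted p = 0.0263, adjusted p = 0.533), a level 1.14-fold lower that did not pass the test. In males it was -0.010 (SE 0.074; 95% interval -0.17 to 0.15). The difference between these sex-specific effects, females minus males, was -0.18 (SE 0.11; 95% interval -0.41 to 0.05; limma adjusted p = 0.998), and it did not pass. The unadjusted limma p in females was 0.05 or more under 2 of 20 alternatives, without WT_female replicate 2 (0.116) and without KO_female replicate 1. Both left out a female array. Leaving out a male array does not change the female difference itself, so not all 20 bear on it. The female value rests on the KO_female arrays, which scored highest on the first principal component of all genes. The part of that component in the difference of Per1 was not tested.

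Per3 read 8.50, 8.56 and 8.48 in WT_male, 8.49, 8.62 and 8.36 in WT_female, 8.54, 8.47 and 8.58 in KO_male and 8.39, 8.58 and 8.45 in KO_female. Both the highest and the lowest array belonged to WT_female, and all groups overlapped. The difference over both sexes was -0.0015 (SE 0.053; 95% interval -0.12 to 0.11; limma adjusted p = 0.997), the nearest to 0 of the 9 after that of Nr1d2.

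Cry1 and Cry2 encode the cryptochromes, the partners of PER that block CLOCK and BMAL1 most directly. Their matched stretches lie on the minus strands of chr10:85185094-85185148 and chr2:92434215-92434250, and are shown beside that of Nr1d1 (chr11:98775385-98775420, minus strand) because all of them held an E-prime match.
Cry1: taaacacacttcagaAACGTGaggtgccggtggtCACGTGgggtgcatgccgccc
Cry2: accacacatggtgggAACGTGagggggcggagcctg
Nr1d1: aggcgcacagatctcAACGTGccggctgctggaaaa
Cry1 held an E-box 60 bases and an E-prime match 79 bases before the start. The E-prime match of Cry2 began 166 bases and that of Nr1d1 28 bases before the start, and such a match was present in 3.85% of all windows. The windows of Nr1d2, Dbp, Arntl and Clock held none of the letters searched. No ROR element and no cyclic AMP element was found in any of the 13 windows, and these were present in 5.38% and 1.55% of all windows. Only these letters in these windows were looked at.

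Cry1 read 8.26, 8.31 and 8.31 in WT_male, 8.20, 8.23 and 8.15 in WT_female, 8.28, 8.17 and 8.24 in KO_male and 8.13, 8.22 and 8.12 in KO_female. The males were mostly higher than the females in both genotypes, and the genotypes overlapped within each sex. The difference between genotypes was -0.050 (SE 0.040; 95% interval -0.14 to 0.04; limma adjusted p = 0.724). For Cry2 the values were 9.06, 9.37 and 9.08 in WT_male, 9.17, 9.02 and 9.004 in WT_female, 9.05, 9.04 and 9.11 in KO_male and 8.97, 9.05 and 9.04 in KO_female. WT_male replicate 2 was the highest array and stood above all others. The difference of Cry2 was -0.076 (SE 0.060; 95% interval -0.21 to 0.055; limma adjusted p = 0.722), and it was -0.025 without that array.

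Nr1d1 and Nr1d2, the repressors of Arntl, did not pass. Nr1d1 read 10.97, 11.09 and 10.99 in WT_male, 10.98, 10.89 and 10.79 in WT_female, 11.09, 11.09 and 10.98 in KO_male and 11.004, 11.06 and 10.94 in KO_female. The WT_female arrays held the 2 lowest values. The difference of Nr1d1 was 0.078 over both sexes (SE 0.048; 95% interval -0.03 to 0.18; limma adjusted p = 0.644), 0.040 in males and 0.12 in females. Nr1d2 read 10.03, 10.03 and 9.87 in WT_male, 9.87, 9.95 and 9.94 in WT_female, 10.01, 10.02 and 9.94 in KO_male and 9.91, 9.94 and 9.89 in KO_female. Its whole range over 12 arrays was 0.16, a 1.12-fold span. The difference of Nr1d2 was 0.0008 (SE 0.043; 95% interval -0.09 to 0.09; limma adjusted p = 0.998).

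Dbp, the output gene, read 9.38, 9.37 and 9.22 in WT_male, 9.22, 9.25 and 9.05 in WT_female, 9.30, 9.26 and 9.40 in KO_male and 9.34, 9.31 and 9.22 in KO_female. WT_female replicate 3 was the lowest array, and KO_male replicate 3 the highest. The difference was 0.059 over both sexes (SE 0.052; 95% interval -0.06 to 0.17; limma adjusted p = 0.753), -0.0029 in males and 0.12 in females. Dbp is among the most strongly rhythmic transcripts known, and its 12 arrays spanned a range of 0.36 on the log2 scale, or 1.28-fold. Because the hour of collection is not given, this span does not show the phase or the size of a rhythm.

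**Figure D2:**
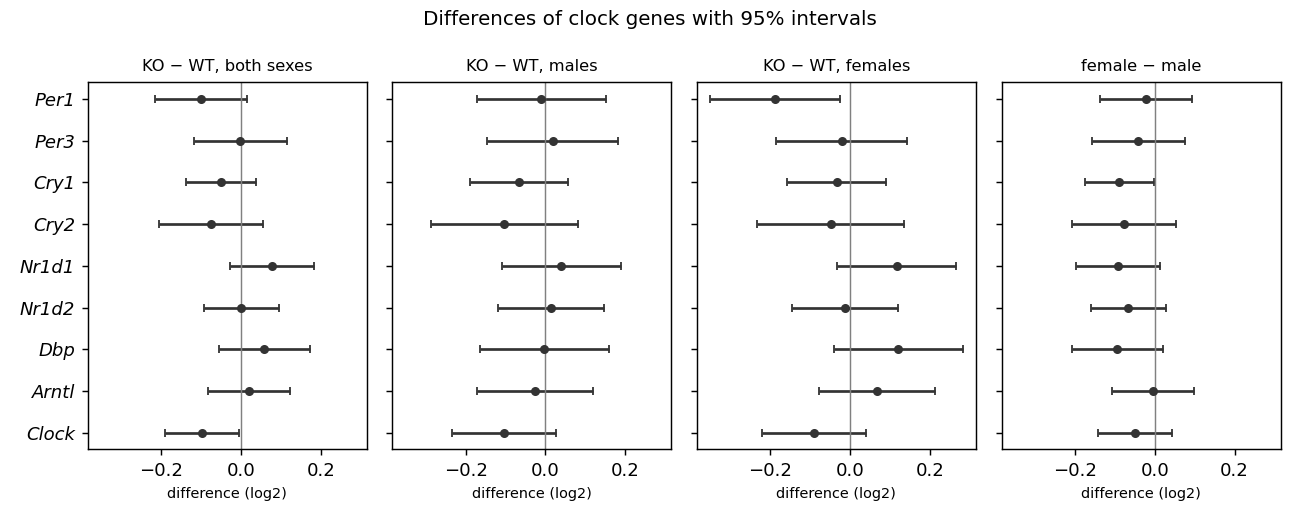
Differences of the 9 clock genes (x axis, log2 units) with 95% intervals from the limma fit, for knockout minus wild type over both sexes, in males and in females, and for females minus males. The intervals include 0 except for Clock over both sexes, Per1 in females and Cry1 between the sexes.

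Within males, 0 of the 9 genes passed for genotype (limma adjusted p under 0.05), against 0.0225% of all genes, and 0 reached an unadjusted p under 0.05, against 5.42%. The differences ran from -0.11 for Clock to 0.040 for Nr1d1, with 6 genes lower, and their median was -0.010 against -0.0045 over all genes. Clock was the 1 gene of the 9 whose male arrays did not overlap between genotypes, where 10.3% of all genes had no overlap. Within females, 0 genes passed, against 0.0225% of all genes, and 1 (Per1) reached an unadjusted p under 0.05, against 8.49%. The differences in females ran from -0.19 for Per1 to 0.12 for Dbp, with 6 genes lower, and had a median of -0.021 against 0.0016 over all genes. Per1 and Arntl were the 2 of 9 genes without overlap in females, where 14.9% of all genes had none. With 3 arrays on each side the intervals, which were not adjusted for the number of genes, reached 0.18 to either side of a difference. Even without adjustment, a change below that size in a single sex could not be resolved for the more variable genes. Passing the adjusted test takes a larger change, whose size was not computed. Per1 in females, at -0.19 with an interval below 0, had a limma adjusted p of 0.533.

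The difference between the genotype effects of the sexes passed for 0 of the 9 genes in the interaction test (limma adjusted p from 0.998 to 0.999). This test called 0% of all genes, and 0 clock genes reached an unadjusted p under 0.05, against 4.82% of all genes. The interaction of Per1 was the largest in size, and those of Dbp (0.12, SE 0.10) and Arntl (0.094, SE 0.094) pointed the other way.

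Between the sexes, all 9 clock genes (8 with quantile normalization) were lower on average in females than in males, and none passed (limma adjusted p under 0.05), against 0.0361% of all genes. At an unadjusted p under 0.05 Cry1 was the 1 gene of 9, against 7.93% of all genes. No clock gene had arrays of the sexes without overlap, against 0.469% of all genes. The differences, females minus males, ran from -0.094 for Dbp to -0.0051 for Arntl, and their median was -0.067 against -0.0028 over all genes. Among genes above the median brightness, where all 9 clock genes lie, 61.7% were lower in females and the median was -0.019. Cry1 stood at 8.17 to 8.31 in males (median 8.27) and at 8.12 to 8.23 in females (median 8.17). It differed by -0.089 (SE 0.040; 95% interval -0.18 to -0.001; limma unadjusted p = 0.0475, adjusted p = 0.627). The unadjusted p was 0.05 or more under 12 of 20 alternatives, up to 0.14 with quantile normalization. Nr1d1 differed by -0.091 (SE 0.048; limma adjusted p = 0.672) and Nr1d2 by -0.066 (SE 0.043; limma adjusted p = 0.725). The gene that turned with quantile normalization was Arntl, at 0.016. The 9 directions come from the same arrays and are not separate observations.

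The 4 groups were set in order by mean level for every gene. The span from the highest to the lowest group mean was 0.061 for Per3 and 0.068 for Arntl, less than 1 within-group SD. It was 0.19 for Per1, with WT_female highest and KO_female lowest, and 0.17 for Nr1d1, with KO_male highest and WT_female lowest. In units of the within-group SD the span was widest for Cry1, at 2.99, and for Clock, at 2.73, with WT_male highest and KO_female lowest in both. Every pair of neighbours in these orders had overlapping arrays, in all 9 genes. Groups that were not neighbours could lie apart, as WT_male and WT_female did for Cry1 and WT_male and KO_male for Clock. Levels are not compared between genes, because rows of an array differ in how strongly they bind.

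The spread between mice of a group was small. The within-group SD, pooled over the 4 groups, had a median of 0.073 among the clock genes on the log2 scale, against 0.11 over all genes and 0.083 among genes above the median brightness. The lowest was 0.046 for Cry1, at percentile 7.0 of the brighter genes. Clock had 0.054 and Nr1d2 0.057, at percentiles 13.9 and 16.8. Per1, Per3 and Dbp had 0.085, 0.087 and 0.085, near the middle of the brighter genes. The highest was 0.10 for Cry2, at percentile 71.2. From the lowest to the highest of 12 arrays the span was between 1.12-fold for Nr1d2 and 1.33-fold for Cry2.

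**Figure D3:**
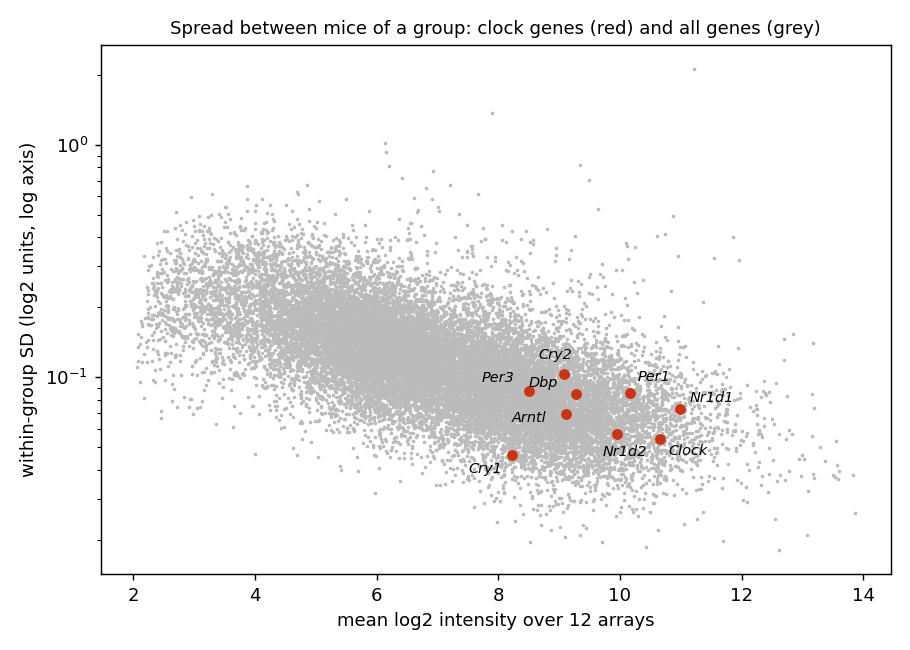
Within-group SD (y axis, log2 units on a log axis) against mean log2 intensity over the 12 arrays (x axis) for 22180 genes in grey and the 9 clock genes in red. The clock genes lie within the grey cloud, between an SD of 0.046 (Cry1) and 0.10 (Cry2).

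Which clock genes varied together from mouse to mouse was asked after the mean of each group had been removed, over all 36 pairs. By an exact permutation of the values within groups (two-sided, 1296 arrangements, smallest possible p 0.000772), 0 of 36 pairs passed after Benjamini-Hochberg adjustment over the pairs. At an unadjusted p under 0.05 there were 2, both positive. Nr1d1 and Arntl had the closest relation, with a Pearson r of 0.815 (exact permutation p = 0.00231, adjusted p = 0.0833) and a Spearman rho of 0.846 (exact permutation p = 0.00154, adjusted p = 0.0556). Arrays high in one of these genes were mostly high in the other; the product of Nr1d1 is a repressor of Arntl. Without the 2 arrays farthest from the median of Nr1d1 the r was 0.807, and leaving out any 1 array gave an r from 0.776 to 0.868. Quantile normalization lowered it to 0.687 (exact permutation p = 0.01, adjusted p = 0.361).

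Per3 and Cry1 followed with an r of 0.743 (exact permutation p = 0.0154, adjusted p = 0.278) and a rho of 0.72 (exact permutation p = 0.0386, adjusted p = 0.586), and an r of 0.742 without the 2 arrays farthest from the median of Per3. All other pairs had an exact permutation adjusted p of 0.59 or more. Among them Per3 and Dbp had an r of 0.65 (0.406 without the 2 farthest arrays), Nr1d2 and Clock one of 0.631 (0.374) and Per1 and Cry1 one of 0.616 (0.506). Per1 and Per3 had an r of 0.563, which rested on 2 arrays and was 0.095 without them. The r of Cry2 with Nr1d1, 0.602, and with Arntl, 0.63, rested on 2 arrays: it turned to -0.229 and -0.558 without those farthest from the median of Cry2. Other values moved as well: Dbp and Clock had an r of 0.465, and 0.901 without the 2 farthest arrays. Dbp had an r of 0.05 with Arntl (0.341 without the 2 arrays farthest from the median of Dbp). With Per1 it had 0.033 (-0.116 without those of Per1). The partners Clock and Arntl had an r of 0.004 (-0.377 without those of Arntl). In the other pairs above, the arrays left out were those farthest from the median of the first gene named or of the gene stated. Over the 36 pairs r was above 0 in 33, with a median of 0.314 and a lowest value of -0.13 for Cry2 and Clock. The same share and median were not computed for pairs of other genes. These counts therefore cannot be read as a trait of the clock genes. All arrays were normalized together, and points of a pair come from the same array.

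**Figure D4:**
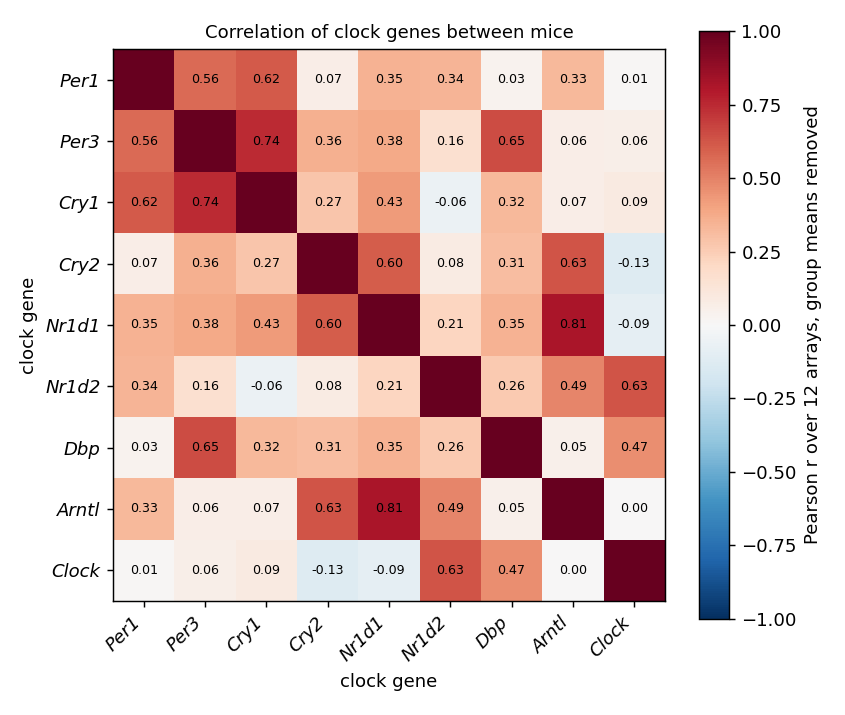
Pearson r between each pair of the 9 clock genes over 12 arrays after removal of group means, with the colour scale from -1 to 1. The strongest colour off the diagonal is that of Nr1d1 with Arntl (0.815), and none of the 36 pairs passed after adjustment.

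The choroid plexus level varied widely between arrays. As a description, its within-group Pearson r over the 12 arrays was 0.53 with Nr1d2, -0.38 with Cry2, 0.32 with Per3 and 0.31 with Per1. With Cry1, Dbp, Clock, Arntl and Nr1d1 it lay between -0.13 and 0.08. The oligodendrocyte level had an r of 0.59 with Cry1, 0.56 with Cry2 and -0.33 with Nr1d2. With Per1, Per3, Nr1d1, Arntl, Dbp and Clock it lay between -0.05 and 0.27. With the choroid plexus level as a covariate Clock differed by -0.0953 (SE 0.047) over both sexes and Per1 by -0.17 (SE 0.078) in females, and no clock gene passed.

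As a description of likeness, the 3 brighter named genes whose values followed each clock gene most closely, group means removed, were sought among 10349 genes over the 12 arrays. Nr1d1 was followed by the nuclear noncoding RNA Malat1 (r 0.951), Dck (0.934) and Ptprb (0.929), and Arntl by Bag2 (0.935), Rab8b (0.935) and Psme3 (0.921). Clock was followed by Zkscan7 (0.917), Tnrc18 (0.902) and Lage3 (0.902), and Dbp by Snapin (0.94), Eloa (0.935) and Apex2 (0.932). For Per1 they were Tbck (0.951), Fyttd1 (0.94) and Cluh (0.926), and for Per3 Rpl7l1 (0.917), Pex5 (0.909) and Cxadr (0.882). Cry1 had Dact1 (0.954), Rps6kb2 (0.944) and Txndc12 (0.92), Cry2 had Rnf25 (0.956), Stx7 (0.942) and Wdr83 (0.939), and Nr1d2 had Arhgef10l (0.91), Anks1b (0.903) and Smad4 (0.899). The clock genes themselves were left out of this search, so they could not appear in it. Each r is the highest of 10349 over few arrays and is not comparable with the r between clock genes.

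A wider list of 30 clock-related genes covered paralogs of the activators, ROR receptors, D-box factors, E-box repressors, kinases, protein turnover, cofactors and outputs. Of these, 26 were analysed here. None of the 26 passed in any of the 5 comparisons (limma adjusted p from 0.414 upward). Over both sexes 12 were higher and 14 lower in the knockout, with a median difference of -0.0018 against -0.0007 over all genes, and 3 had an unadjusted p under 0.05, against 9.26% of all genes. The largest in size was Ciart, which encodes a repressor of CLOCK and BMAL1 activity and is itself driven by E-boxes, with 0.27 (SE 0.08; 95% interval 0.08 to 0.45; limma unadjusted p = 0.00858, adjusted p = 0.414). In females alone it differed by 0.37 (SE 0.12; limma adjusted p = 0.466). Every KO_female array was above every WT_female array, and 14.9% of all genes had no overlap in females. Bhlhe41, Nfil3, Nampt and Usp2 of this list had none there either.

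Wee1, a cell cycle kinase under clock control, differed by -0.13 (SE 0.047; limma adjusted p = 0.48), and Usp2, a rhythmic deubiquitinase, by -0.10 (SE 0.045; limma adjusted p = 0.52). In males Wee1 differed by -0.21, Prok2 by -0.15 and Vip by 0.16. In females Nampt, which makes a precursor of NAD and is driven by CLOCK and BMAL1, differed by -0.20, and Arntl2, the paralog of Arntl, by -0.15. In the interaction test Vip had -0.31 (limma adjusted p = 0.997), Arntl2 -0.21 and Prok2 0.21. The signals of Vip and Prok2 were low. Vip lay at percentile 23.2 by brightness, and Prok2 averaged 5.93 in females and 5.91 in males on the log2 scale. Between females and males the smallest p belonged to the ROR receptor gene Rorb (-0.13, SE 0.041; limma adjusted p = 0.566), followed by Arntl2 (-0.13) and Nampt (-0.11). The D-box factors Tef (-0.069), Hlf (0.029) and Nfil3 (0.063) and the E-box repressors Bhlhe40 (0.020) and Bhlhe41 (0.074) had small differences between genotypes, like Dbp. Ciart, which the list also counts as an E-box repressor, had the larger difference given above (0.27).

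Per1 is also a target of glucocorticoids and of neuronal activity, so genes of both inputs were set beside it. None of the 6 glucocorticoid-responsive and 7 activity-induced genes passed in any comparison. Zbtb16, a zinc-finger factor induced by glucocorticoids, differed by 0.49 between genotypes (SE 0.14; limma adjusted p = 0.35), by 0.61 in males and 0.38 in females, and by 0.46 between females and males (limma adjusted p = 0.554). The other glucocorticoid-responsive genes, Fkbp5 (0.074), Tsc22d3 (0.11), Sgk1 (-0.079), Ddit4 (0.097) and Errfi1 (-0.10), had smaller differences of both signs.

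All 7 activity-induced genes were lower in the knockout on average, with a median of -0.32, and 5 of them had an unadjusted p under 0.05, against 50.4% and 9.26% of all genes. In males all 7 were lower, against 51.9% of all genes. In females 6 were lower, against 49.4%. The 7 genes come from the same arrays and are not separate observations, and the list was chosen with earlier results of these data known. The oligodendrocyte level was also in a lower range in the knockout (8.51 to 8.96 against 8.90 to 9.11), and its part in these differences was not tested. Dusp1 differed by -0.32 (SE 0.08; limma adjusted p = 0.316), Fosb by -0.33 (SE 0.10; limma adjusted p = 0.385), Nr4a1 by -0.44 and Fos by -0.38, while Arc differed by -0.0058 and Junb by -0.031. In males Egr1 differed by -0.26 and Nr4a1 by -0.66, and in females Dusp1 by -0.32 and Fosb by -0.34. The interaction values were 0.23 for Egr1, 0.18 for Arc and 0.43 for Nr4a1. Between females and males Nr4a1 differed by -0.19 and Junb by -0.056. Beside these, Per1 differed by -0.010 in males and by -0.19 in females.

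**Figure D5:**
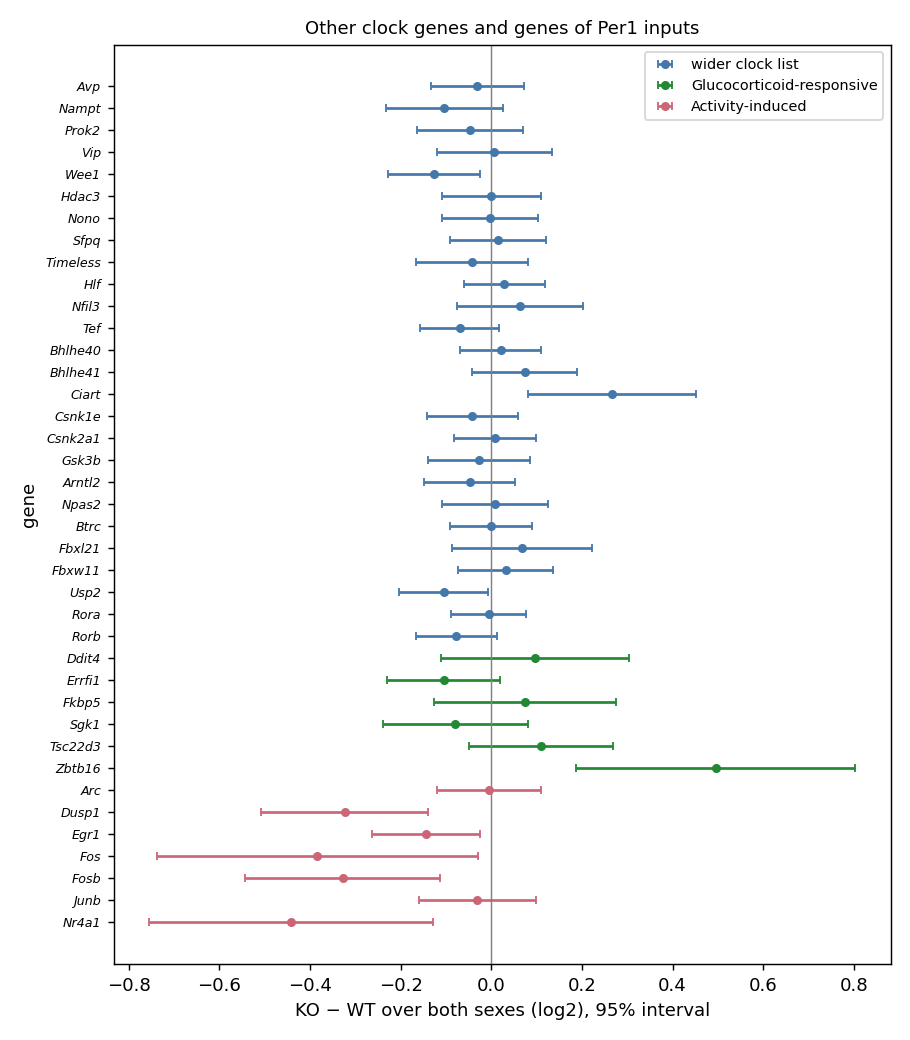
Knockout minus wild type over both sexes (x axis, log2 units) with 95% intervals for 26 further clock genes and for genes of the glucocorticoid and activity inputs to Per1 (y axis). Most clock-related genes lie within 0.1 of 0; the glucocorticoid-responsive Zbtb16 (0.49) and, of the clock-related genes, Ciart (0.27) lie farthest to the right, the activity-induced Dusp1, Fos, Fosb and Nr4a1 lie to the left, and none passed the test.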

How the data were processed

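The authors deposited RMA expression values from a core-exon analysis in Affymetrix Expression Console, per the labels. The submitters' processing notes further list Transcriptome Analysis Console 3.0. The deposited values are intensities on a linear scale (array medians 96.5 to 98.7), so log2 was taken before any test, with no pseudocount; the genome build of the array is not given in the sources used here. Of 41345 rows, 23521 carried 1 gene symbol in GEO's platform annotation, 1814 several and 16010 none. The brightest single-symbol row was kept for each of 22180 genes.

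limma 3.58.1 in R 4.3.3 fitted 1 mean per group over all 12 arrays with eBayes, two-sided, adjusted by Benjamini-Hochberg over 22180 genes; the fit was tested on simulated data. Pairs were tested in Python 3.11.15 with numpy 2.4.6; 36 instead of the 45 planned pairs were possible without Per2. All clock genes are named, Ciz1 as a check, the 3 genes with the smallest p per comparison from the wider list and from the input genes, the 3 genes most like each member, and markers; further list genes were named after their values were seen. The members, lists and tests were chosen with earlier results of these data known. No batch is given in the labels, and the number of arrays limits the precision. Sequences come from RefSeq's table of GRCm38.p6.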

Additional observations from a re-analysis of the deposited data

Results flagged for a closer look

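In 18 sets of 6 arrays (9 clock genes in 2 genotypes), 2 held an array far from the other 5, where chance alone gives about 1 in 20. For Per1 the highest wild-type array, WT_female replicate 2 at 10.36, was separated from the next by 0.756 of the range of the wild-type arrays. For Arntl the lowest knockout array, KO_male replicate 3 at 9.003, was separated by 0.759 of the range of the knockout arrays. No clock gene had genotype effects of opposite sign without overlap in the sexes.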

How the results depend on the processing

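Each comparison was repeated under 20 alternatives: an intensity trend, robust hyperparameters, quantile normalization, brighter genes only, the mean of a gene's rows, a pseudocount of 16, array weights, a choroid plexus covariate and leaving out each of the 12 arrays. None of the 900 resulting differences of the 9 clock genes passed (smallest limma adjusted p = 0.312), and 0 of 36 pairs passed under any alternative to the pair test. With 1 array left out, the exact permutation allows no p below 0.00231, so a single pair could not pass there. Nr1d1 and Arntl were at that value without WT_male replicate 1 and also without WT_male replicate 3, each with an exact permutation adjusted p of 0.0833. Leaving out 2 arrays allows fewer arrangements still. The sign turned in 47 of the 900, in 17 of 45 gene and comparison combinations, all with a difference of at most 0.055 in size. Many of the 900 could not turn. The intensity trend, robust hyperparameters, brighter genes and the mean of rows leave a clock gene's difference unchanged. So does leaving out an array of the other sex for a difference within a single sex. All 9 genes were lower in females than in males under the other alternatives, except for 8 with quantile normalization and without WT_male replicate 2, WT_female replicate 3 or KO_male replicate 2, and 7 without KO_male replicate 1. Over all genes the count of calls moved from 5 to 18 with an intensity trend, 14 over brighter genes and 3 with the choroid plexus covariate for genotype over both sexes. In females it moved from 5 to 26, 16 and, with the pseudocount, 8. Between the sexes it moved from 8 to 15 with the trend and 13 over brighter genes, and in the interaction test from 0 to 2 with either and 1 with the pseudocount. Leaving out 1 array gave 3 to 8 calls over both sexes, 2 to 4 in males (5 with all arrays), 3 to 7 in females, 6 to 8 between the sexes and 0 to 1 in the interaction test. No paired analysis was possible because the labels give the groups no shared replicate numbers.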
